A study of Mus musculus with 13 samples.

Results

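The Hox genes encode homeodomain transcription factors, and in the mouse they lie in the Hoxa, Hoxb, Hoxc and Hoxd clusters. All genes whose symbol is Hox followed by a cluster letter and a paralogue number were taken, which gave 39 genes in the annotation. Of these, 23 have values in the count tables of 17924 genes, namely 9 of 11 in Hoxa, 3 of 10 in Hoxb, 7 of 9 in Hoxc and 4 of 9 in Hoxd. The other 16 were not analysed here. After a filter on low counts 21 members were tested among 17069 genes, and Hoxa2 and Hoxb6 are given as levels without a test.

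The study sequenced RNA of skeletal muscles of mice with the mdm mutation of the titin gene Ttn, a model of muscular dystrophy with myositis, from a colony on the B6C3Fe a/a background. The 13 mdm libraries used here come from whole extensor digitorum longus (EDL, n = 5, mice of 38 or 42 days), psoas (n = 5, 29 to 42 days) and soleus (n = 3, 33 to 38 days). All 3 groups carry the mdm genotype, so the muscles differ among diseased mice only, and wild-type muscles were not analysed here. The muscles were taken whole, with their connective tissue, vessels and nerve, so that fewer cells of a type and less RNA per cell cannot be told apart.

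Within a cluster the genes are ordered by paralogue number, and those of low number are switched on more anteriorly in the embryo and those of high number more posteriorly and, in the limb, more distally. In limb development paralogues 9 and 10 are known for the upper segment, paralogue 11 for the middle segment and paralogue 13 for hand and foot. EDL and soleus lie in the lower leg, and the tendons of EDL run to the toes, while psoas runs from the lumbar spine to the femur.

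Total counts were 9114176 to 48835209 per library, and the counts on the 23 Hox members summed to 522 to 2907 per library. Levels are counts divided by the authors' size factor of the library, called normalized counts. The soleus label was checked against fibre markers. Of 8 slow fibre genes 4 were called higher in soleus than in EDL, beside 0.533% of all genes. Of 6 fast fibre genes 4 were called lower, beside 0.445%. Between soleus and psoas edgeR called 0 of either list, while 8 slow and 3 fast genes were at an unadjusted p under 0.05, beside 12.7% of all genes. DESeq2 called 6 slow and 3 fast genes there, beside 95 genes higher and 76 lower among all 17069. The slow genes summed to 350050 to 414997 normalized counts in soleus, 11411 to 57832 in EDL and 15429 to 66549 in psoas. The slow sums overlapped between psoas and EDL, and 0 of 8 slow genes were called there. The fast genes summed to 850306 to 1918520 in EDL, 162824 to 485805 in psoas and 70998 to 98681 in soleus. Of the 6 fast genes edgeR called 3 lower in psoas than in EDL, beside 2.50% of all genes, and DESeq2 called 6. Psoas replicate 1, from the mouse of 29 days, stood apart from the other psoas libraries, so results that rest on it are given with and without it. It held the highest of the 5 psoas values for 17 of the 23 Hox members and for 27.1% of all genes tested, against 16.4% to 20.7% in the other psoas libraries.

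The 250 bases before the annotated start are printed for 3 members as examples, which were picked by their difference between psoas and EDL. Hoxa13 and Hoxa11 were the members with the largest negative differences between psoas and EDL, and Hoxb4 had the largest positive difference among the members whose start has an entry in the RefSeq table used (GRCm38.p6). The windows are chr6:52260881-52261130 on the reverse strand for Hoxa13, chr6:52245811-52246060 on the reverse strand for Hoxa11 and chr11:96318017-96318266 on the forward strand for Hoxb4. Capitals mark GGGCGG, the box bound by Sp1, on either strand.
Hoxa13: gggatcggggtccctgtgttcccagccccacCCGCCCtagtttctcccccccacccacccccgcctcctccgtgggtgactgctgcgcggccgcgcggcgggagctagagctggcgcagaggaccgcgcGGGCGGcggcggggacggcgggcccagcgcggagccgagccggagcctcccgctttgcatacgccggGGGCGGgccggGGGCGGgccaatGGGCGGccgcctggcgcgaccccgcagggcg
Hoxa11: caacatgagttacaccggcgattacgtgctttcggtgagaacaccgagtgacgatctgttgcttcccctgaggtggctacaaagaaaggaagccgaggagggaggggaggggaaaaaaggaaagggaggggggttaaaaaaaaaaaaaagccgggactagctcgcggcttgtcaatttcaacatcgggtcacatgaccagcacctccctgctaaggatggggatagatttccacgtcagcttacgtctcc
Hoxb4: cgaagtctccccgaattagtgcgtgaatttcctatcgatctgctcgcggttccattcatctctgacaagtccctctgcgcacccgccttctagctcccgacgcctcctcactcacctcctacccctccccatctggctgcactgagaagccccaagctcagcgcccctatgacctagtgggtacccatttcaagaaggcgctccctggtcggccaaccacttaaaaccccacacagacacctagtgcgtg
The Hoxa13 window held 5 GGGCGG boxes and 35 CG dinucleotides, against 0 boxes in both other windows, with 13 CG in Hoxa11 and 14 in Hoxb4. Among 32851 promoter windows of this length 32.7% held a GGGCGG box, and the median number of CG was 6. The 14 members with values that have an entry contributed 16 windows, of which 7 held the box, and their median was 13 CG, from 2 to 35. The letters TATAAA were found on either strand in 1 of the 16 windows and in 12.4% of all, TAATTA, a core bound by homeodomains, in 2 and in 4.84%, and CCAATC in 2 and in 14.6%. The called members Hoxc6, Hoxc8 and Hoxc11 have no window in the table used.

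**Figure D1:**
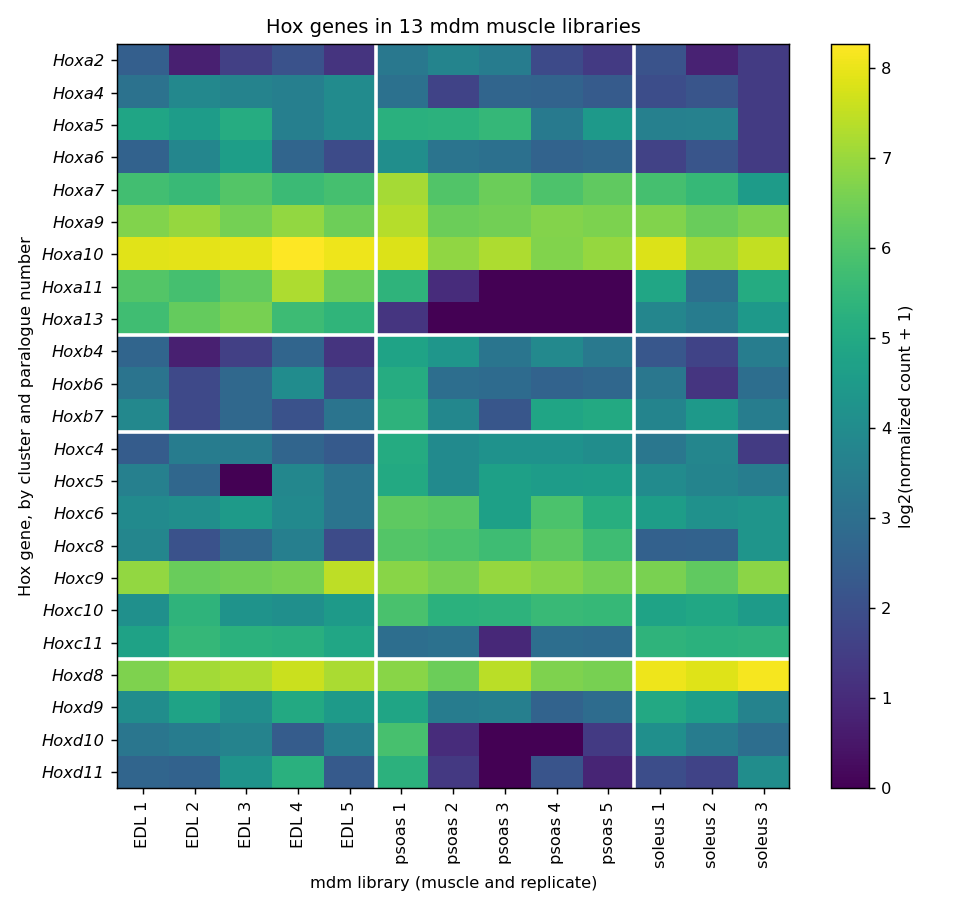
Each cell is the log2 of the normalized count plus 1 for 1 of 23 Hox genes (rows, by cluster and paralogue number) in 1 of 13 mdm libraries (columns, with white lines between muscles and clusters). Hoxa9, Hoxa10, Hoxc9 and Hoxd8 are bright in all libraries, Hoxa13 is dark in all psoas libraries, and Hoxa11, Hoxd10 and Hoxd11 are darker in the other psoas libraries than in replicate 1.

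Per kilobase of exon, the scale on which genes can be compared with each other, the same few members led in each muscle. In EDL, Hoxa10 had the highest mean level, 79.5 ± 8.87 normalized counts per kilobase (SD, n = 5), and its lowest library lay above the highest of Hoxd8, the next member with 53.4 ± 12.4. Hoxc9, Hoxa11 and Hoxa13 followed with means of 45.9, 38.0 and 25.7 per kilobase, and neighbours from Hoxd8 downwards overlapped. In psoas, Hoxa10, Hoxc9 and Hoxd8 had means of 44.3 ± 14.9, 43.3 ± 5.19 and 40.8 ± 12.4 per kilobase (n = 5), which overlapped. In soleus, Hoxd8 led with 94.2 ± 9.45 per kilobase (n = 3) and did not overlap Hoxa10, at 55.7 ± 14.2, while Hoxc9 followed at 38.8 ± 7.77. Between 10 and 11 members reached a normalized count of 10 in every library of a muscle, 11 in EDL, 10 in psoas and 11 in soleus. Libraries at 0 counts occurred for Hoxc5 in EDL and for Hoxa11, Hoxa13, Hoxd10 and Hoxd11 in psoas.

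Hoxa9 and Hoxc9, paralogues expressed broadly in the posterior trunk and hindlimb, were at similar levels in the 3 muscles. Hoxa9 had normalized counts of 86.6 to 122 in EDL, 84.4 to 160.2 in psoas and 82.8 to 102 in soleus. Hoxc9 ran from 82.3 to 172 in EDL, 92.0 to 123 in psoas and 74.3 to 112 in soleus. Both overlapped in all 3 muscles, and their log2 fold changes lay between -0.24 and 0.03 in the 3 comparisons.

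Between psoas and EDL, Hox genes differed in both directions. The quasi-likelihood test of edgeR was used, and the p-values were adjusted by the Benjamini-Hochberg method over all 17069 genes tested. Calls needed an adjusted p below 0.01 together with a log2 fold change beyond 1 in either direction. Of 21 Hox genes, 2 were higher in psoas, Hoxc6 and Hoxc8, and 2 were lower, Hoxa13 and Hoxc11. Over all genes tested 2.43% were called higher and 2.50% lower. With the replicate number as a block, which treats same-numbered EDL and psoas libraries as pairs, the same 4 members were called. The share of all genes rose to 4.11% higher and 3.31% lower. The 5 psoas and 5 EDL libraries did not overlap for 10 of 21 Hox genes, 5 higher and 5 lower in psoas, against 6.48% and 6.56% of all genes. The median log2 fold change was 0.03 over the Hox genes and 0.02 over all genes, with the Hox genes running from -7.08 to 3.01. At an unadjusted p under 0.05 there were 13 of 21 Hox genes, against 33.3% of all genes.

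Hoxa13 (ENSMUSG00000038203, chromosome 6, 52257694 to 52260880 of GRCm38, reverse strand) is the last gene of the Hoxa cluster and acts in the formation of hand and foot. Its normalized counts were 52.4, 79.1, 93.6, 50.1 and 41.9 in EDL replicates 1 to 5, and 12.8, 10 and 20.6 in soleus replicates 1 to 3. In psoas it had 1.40 in replicate 1, from 3 counts, and 0 in the other 4 libraries, so that each muscle occupied a range of its own. The pooled counts, 371 in EDL and 3 in psoas, gave a ratio of EDL to psoas of 152 per size factor, with an exact 95% interval of 51.6 to 740.5 that covers counting error only. The test called Hoxa13 lower in psoas, with an adjusted p of 0.000495 by edgeR, and its fitted log2 fold change of -7.08 (SE 0.665) depends on the prior count of the fit. The labels give each library a code of unstated meaning, and 3 codes hold both muscles. The EDL and psoas means were 79.1 and 0 in code T4, 93.6 and 0 in T5 and 46.0 and 0 in T6.

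Hoxc11 (ENSMUSG00000001656, chromosome 15, 102954427 to 102957708, forward strand) belongs to the paralogues that pattern the middle limb segment. It had normalized counts of 26.0, 44.0, 37.8, 35.9 and 28.4 in EDL and 40.6, 37.8 and 39.5 in soleus, which overlapped. In psoas the values were 6.99, 7.48, 0.916, 6.95 and 6.63, all below every library of the other muscles. The mean was 34.4 ± 7.31 in EDL (SD, n = 5) and 5.79 ± 2.74 in psoas (n = 5). Psoas against EDL gave a log2 fold change of -2.53 (SE 0.396, edgeR adjusted p = 0.00182), and without psoas replicate 1 it was -2.60 (adjusted p = 0.00383). The psoas and EDL means were 7.48 and 44.0 in code T4, 0.916 and 37.8 in T5 and 6.79 and 32.2 in T6.

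Hoxc8 (ENSMUSG00000001657, chromosome 15, 102990607 to 102994111, forward strand) is known for the patterning of thoracic vertebrae and for brachial motor neurons. Its normalized counts in psoas were 65.2, 59.8, 51.3, 72.1 and 50.6, against 12.8, 3.19, 5.97, 10.9 and 2.71 in EDL. In soleus they were 4.97, 5 and 18.9. Every psoas library lay above all libraries of EDL and soleus, and the latter overlapped each other. Psoas had a mean of 59.8 ± 9.19 and EDL of 7.11 ± 4.54 (SD, n = 5 each), a log2 fold change of 3.01 (SE 0.474, edgeR adjusted p = 0.00185), and Hoxc8 was still called without psoas replicate 1, at 2.97. The psoas and EDL means were 59.8 and 3.19 in code T4, 51.3 and 5.97 in T5 and 61.3 and 6.80 in T6.

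Hoxc6 (ENSMUSG00000001661, chromosome 15, 102998257 to 103011881, forward strand) is expressed from the thoracic region of the embryo. It had 72.7, 68.9, 24.7, 59.9 and 35.6 normalized counts in psoas, 14.5, 15.9, 21.9, 14.2 and 8.12 in EDL and 23.2, 17.1 and 18.9 in soleus. All psoas libraries lay above the other muscles, though replicate 3, at 24.7, was close to the highest soleus library. Psoas against EDL gave a log2 fold change of 1.82 (SE 0.359, edgeR adjusted p = 0.00523). This call was lost when EDL replicate 1, 2, 4 or 5 or psoas replicate 1, 2 or 4 was left out, with log2 fold changes of 1.68 to 2.01 and adjusted p-values of up to 0.0161 over the 13 fits that each left out 1 library. It was also lost once label codes were blocked (1.65, adjusted p = 0.014) and with the compared muscles alone (1.84, adjusted p = 0.0108). Within label codes, the psoas and EDL means were 68.9 and 15.9 in T4, 24.7 and 21.9 in T5, and 47.8 and 11.1 in T6.

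**Figure D2:**
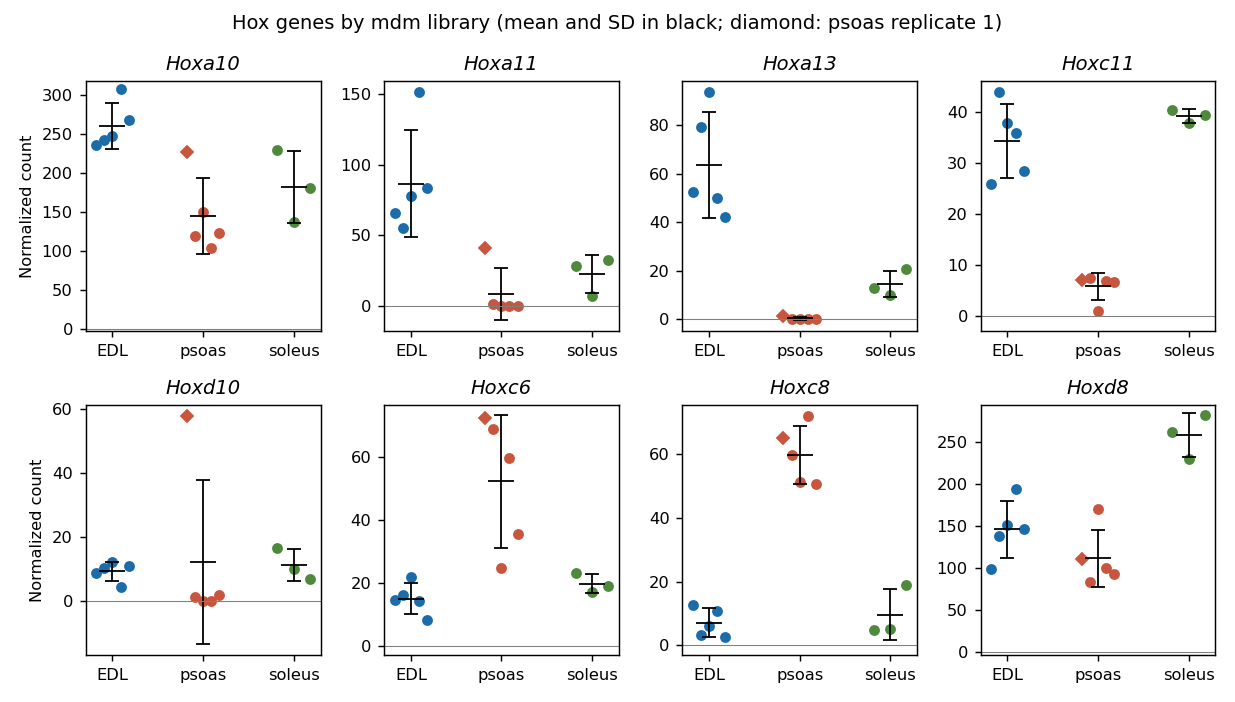
Points are normalized counts of 8 Hox genes in the 13 mdm libraries by muscle, with the mean and SD in black and psoas replicate 1 as a diamond. Hoxa13 and Hoxc11 are lowest in psoas, Hoxc6 and Hoxc8 highest in psoas and Hoxd8 highest in soleus, while the diamond lies apart for Hoxa10, Hoxa11 and Hoxd10.

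Hoxa11, whose product acts in the middle limb segment, had normalized counts of 65.6, 55.5, 77.6, 151.4 and 83.9 in EDL. In psoas it had 41.0 in replicate 1, 1.07 in replicate 2 and 0 in replicates 3 to 5, and in soleus 28.6, 7.14 and 32.7. EDL lay above both other muscles, and psoas replicate 1 lay above the soleus libraries while the other 4 lay below them. With all libraries, psoas against EDL gave a log2 fold change of -3.21 (SE 1.03, edgeR adjusted p = 0.0428), which was not called. Without psoas replicate 1 it was -7.56 (SE 0.760, adjusted p = 0.00101) and was called lower. Hoxa11 was also called lower with all libraries by limma (-5.08, adjusted p = 0.00219). With label codes blocked, edgeR gave -7.56 (adjusted p = 0.000487) and called it lower. Psoas replicate 1 is alone in its code, so under that block it adds nothing to the comparison. Of the Hoxa11 exons, 35.0% lie opposite those of the antisense gene Hoxa11os, and the strand setting of the counting is not given in the sources used here, so the reads of the pair are uncertain. Hoxa11os itself had 17.9 to 51.2 normalized counts in EDL, 2.48 to 6.88 in soleus, 7.45 in psoas replicate 1 and 0 in the other psoas libraries, and it was called lower in psoas (log2 fold change -4.12, SE 0.883, edgeR adjusted p = 0.00783).

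Hoxa10, a paralogue of the upper limb segment, had normalized counts of 235.5, 242.4, 246.9, 307.1 and 267.8 in EDL and 226.9, 119.1, 150.2, 104.2 and 123.5 in psoas. Soleus had 229.3, 136.4 and 180.5. EDL lay above every library of both other muscles, with psoas replicate 1 and soleus replicate 1 closest to it. Between psoas and EDL the log2 fold change was -0.84 (SE 0.221, edgeR adjusted p = 0.0186), and without psoas replicate 1 it was -1.06 (adjusted p = 0.00603), which was called.

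The values of Hoxd10 and Hoxd11, neighbours in the Hoxd cluster, moved with psoas replicate 1, and that of Hoxd10 changed sign without it. Hoxd10, known for lumbar motor neurons and the limb, had 57.8 normalized counts in psoas replicate 1 and 1.07, 0, 0 and 1.66 in replicates 2 to 5, against 4.36 to 11.9 in EDL and 6.88 to 16.6 in soleus. Its log2 fold change between psoas and EDL was 0.48 with all libraries (SE 1.07, edgeR adjusted p = 0.789), and without that library it was -3.46 (SE 0.710, adjusted p = 0.00976). Hoxd11, a paralogue of the middle limb segment, had 38.7 in psoas replicate 1 and 1.60, 0, 3.47 and 0.829 in the others, against 4.06 to 37.0 in EDL and 2.14 to 15.5 in soleus. Its log2 fold change moved from -0.51 (adjusted p = 0.768) to -3.08 (adjusted p = 0.0468), and neither was called. Part of the exons, 5.73% of Hoxd10 and 10.8% of Hoxd11, is shared on the same strand with the gene model Gm28309.

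Without psoas replicate 1, 5 Hox genes were called lower in psoas than in EDL, namely Hoxa10, Hoxa11, Hoxa13, Hoxc11 and Hoxd10, and 1 was called higher, Hoxc8. Over all genes tested 1.17% were then called lower and 1.45% higher. In psoas replicate 1, 36 genes exceeded 40 normalized counts while every other psoas library was under 5. Hoxa11, Hoxd10, Lmx1b and Dlx6 were among these 36, of which 25 were predicted or RIKEN gene models (named after their values were seen).

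The remaining members of low paralogue number were mostly at higher levels in psoas, but did not reach the threshold. Hoxb4 had 8.24 to 27.02 normalized counts in psoas and 0.638 to 5.54 in EDL, without overlap, and a log2 fold change of 2.28 (SE 0.606, edgeR adjusted p = 0.0195). Hoxc4 had 14.4 to 32.6 against 4.06 to 10.2 and Hoxc5 14.4 to 31.7 against 0 to 13.1, also without overlap, and both had a log2 fold change of 1.54 (adjusted p = 0.0389 and 0.0418). Hoxc5 shares 5.37% of its exon bases with Hoxc10, which had 37.9 to 58.2 in psoas and 16.3 to 40.2 in EDL and a log2 fold change of 1 (adjusted p = 0.037). Hoxb7 had 3.66 to 39.6 in psoas and 2.55 to 13.6 in EDL, with overlap (log2 fold change 1.74, adjusted p = 0.0553). Hoxa4 went the other way, with 2.14 to 7.45 in psoas, 7.66 to 14.9 in EDL and 1.72 to 3.57 in soleus, and a log2 fold change between psoas and EDL of -1.24 (adjusted p = 0.0522).

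Hoxa2 and Hoxb6, which were not tested, had at most 12.3 normalized counts in any library for Hoxa2 and 34.0 for Hoxb6, the latter in psoas replicate 1. Hoxa5, Hoxa6 and Hoxa7 overlapped between psoas and EDL, with log2 fold changes of 0.45, -0.15 and 0.66. Hoxd9 had 5.21 to 27.9 in psoas and 15.8 to 31.6 in EDL, a log2 fold change of -0.84 (edgeR adjusted p = 0.216), and -1.42 (adjusted p = 0.0351) without psoas replicate 1.

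**Figure D3:**
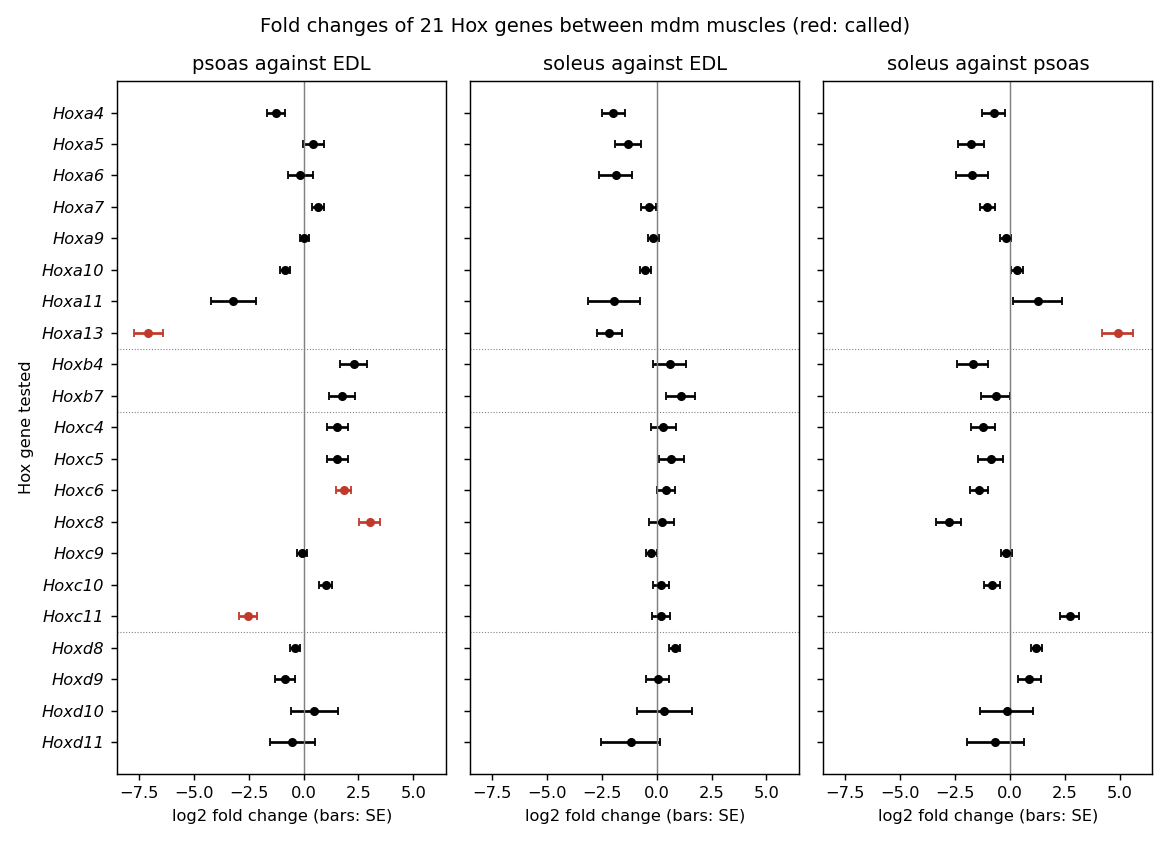
Points are log2 fold changes with their SE for 21 Hox genes in the 3 comparisons of mdm muscles, in order of cluster and paralogue number, with called genes in red. In psoas against EDL the values run from -7.08 for Hoxa13 to 3.01 for Hoxc8.

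Grouped by paralogue number, the median log2 fold change between psoas and EDL was 1.54 for paralogues 1 to 4 (3 genes, 0 called), 1.10 for 5 to 8 (8 genes, 2 called higher), -0.02 for 9 and 10 (6 genes, 0 called) and -2.87 for 11 to 13 (4 genes, 2 called lower). Without psoas replicate 1 the medians were 1.27, 0.90, -0.61 and -5.32, with 1 gene of 5 to 8 called higher, and 2 of 9 and 10 and 3 of 11 to 13 called lower. With all libraries, the 4 genes of the last group had a negative value, and 3 of them did not overlap between the muscles. Across the 21 genes the correlation of paralogue number with this fold change was r = -0.644 (Spearman's rho -0.58), and r = -0.696 without psoas replicate 1. It was -0.737 over the 8 genes of Hoxa, -0.62 over the 7 of Hoxc and 0.213 over the 4 of Hoxd, and without psoas replicate 1 it was -0.764, -0.59 and -0.909 in the same order. These are descriptions across genes that share libraries and neighbouring positions.

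The make-up of the Hox signal of each library, taken from the same counts, also differed by paralogue number. Paralogues 11 to 13 made up 18.4% to 26.3% of the summed normalized counts per kilobase of the 23 members in EDL and 9.07% to 13.7% in soleus. In psoas they made up 6.02% in replicate 1 and 0.14% to 1.57% in the other 4 libraries. Paralogues 5 to 8 ranged from 26.1% to 35.3% in EDL, 45.3% to 51.3% in psoas and 41.7% to 47.0% in soleus. Paralogues 9 and 10 overlapped in all muscles, from 37.8% to 52.3%. Paralogues 1 to 4 made up 3.0% to 3.53% in EDL, 4.74% to 7.36% in psoas and 2.02% to 2.91% in soleus. For this class soleus thus lay below EDL, not between EDL and psoas. By cluster, Hoxa made up 51.2% to 60.0% in EDL, 30.2% to 41.3% in psoas and 31.7% to 37.7% in soleus, and Hoxc 18.9% to 28.0%, 30.1% to 47.1% and 25.6% to 28.7%. Hoxd made up 32.9% to 34.9% in soleus, above all libraries of EDL (14.6% to 22.6%) and psoas (12.5% to 20.8%). This share was mostly Hoxd8, with a mean of 94.2 per kilobase in soleus and 53.4 in EDL. Hoxd9, Hoxd10 and Hoxd11 had means of 10.5, 6.14 and 1.62 in soleus and 10.5, 5.05 and 3.31 in EDL. The sum itself overlapped between the muscles, and psoas replicate 1 had the highest, 517 per kilobase, against 279 to 323.8 in the other psoas libraries.

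**Figure D4:**
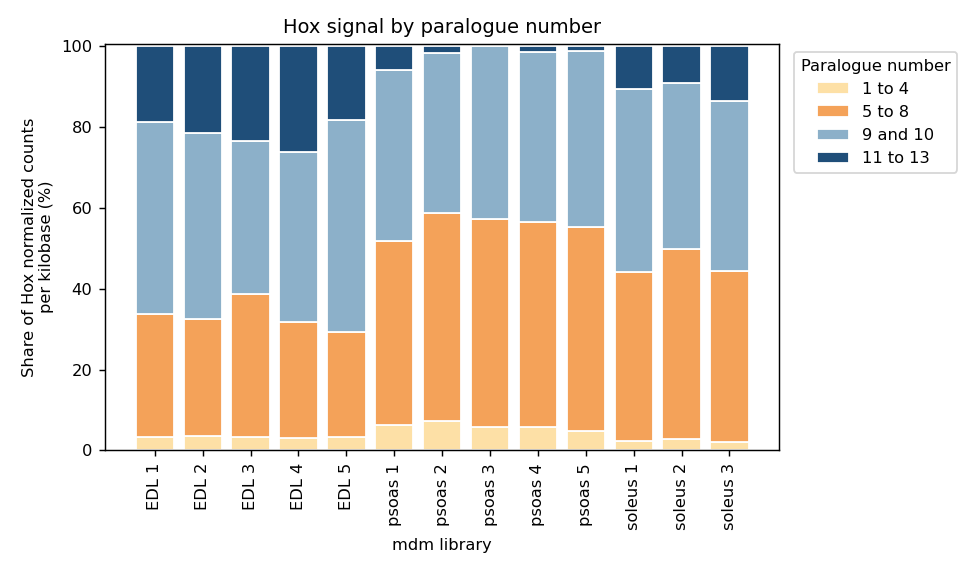
Bars show for each of the 13 mdm libraries the percentage of the summed normalized counts per kilobase of 23 Hox genes that falls to paralogues 1 to 4, 5 to 8, 9 and 10, and 11 to 13. The share of paralogues 11 to 13 is 18.4% to 26.3% in EDL, 9.07% to 13.7% in soleus and at most 6.02% in psoas.

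In soleus against EDL, which uses the same EDL libraries as the comparison before it, 0 of 21 Hox genes were called by edgeR, against 0.533% of all genes higher and 0.445% lower. At an unadjusted p under 0.05 there were 5 Hox genes, Hoxa4, Hoxa5, Hoxa6, Hoxa13 and Hoxd8, beside 15.1% of all genes, and DESeq2 called 1, Hoxa13. All 8 tested genes of Hoxa had a negative log2 fold change, from -2.16 to -0.15 with a median of -1.60, against -0.03 over all genes. The 3 soleus libraries lay below all EDL libraries for Hoxa4, Hoxa10, Hoxa11 and Hoxa13, that is 4 of 21, against 5.72% of all genes. Hoxa13 had a log2 fold change of -2.16 (SE 0.569, edgeR adjusted p = 0.0519) and Hoxa4 of -1.98 (SE 0.530, adjusted p = 0.0555).

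Hoxd8, a gene of the middle of the Hoxd cluster, was the member that stood highest in soleus. It had normalized counts of 262.8, 230.7 and 282 in soleus, 99.6, 139.1, 151.3, 195 and 147.4 in EDL and 111.3, 83.8, 170.4, 100.7 and 93.7 in psoas. The soleus libraries lay above all others, and EDL and psoas overlapped. It was the 1 Hox gene of 21 whose soleus libraries all lay above EDL, against 5.33% of all genes. The log2 fold change of soleus was 0.83 against EDL (SE 0.253, edgeR adjusted p = 0.0977) and 1.21 against psoas (SE 0.252, adjusted p = 0.0447), and neither was called.

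In soleus against psoas 1 of 21 Hox genes was called higher, Hoxa13, and 0 lower, beside 0.0703% and 0.00586% of all genes. The libraries did not overlap for 9 Hox genes, 3 higher and 6 lower in soleus, against 4.97% and 5.19% of all genes. The pooled counts of Hoxa13, 57 in soleus and 3 in psoas, gave a ratio of 32.3 per size factor (exact 95% interval 10.5 to 161.1), and the edgeR adjusted p was 0.00904. This call held when EDL replicate 5 or psoas replicate 1 was left out and was lost when any other single library was left out, with adjusted p-values of 0.00786 to 0.0431 over the 13 such fits. It was also lost once label codes were blocked (adjusted p = 0.0177) and with the compared muscles alone (0.0388). The replicate block gave 0.017 and no call, but the soleus numbers did not pair with those of the other muscles. Hoxc11 was at a log2 fold change of 2.73 (SE 0.429, adjusted p = 0.0121) and Hoxc8 at -2.78 (SE 0.579, adjusted p = 0.0454), both without overlap of the libraries and neither called. At an unadjusted p under 0.05 there were 11 of 21 Hox genes, against 12.7% of all genes, and DESeq2 called Hoxa13, Hoxc11 and Hoxd8 higher and Hoxc8 lower. By paralogue number the median log2 fold change was -1.23 for 1 to 4, -1.20 for 5 to 8, -0.15 for 9 and 10, and 2 for 11 to 13, and without psoas replicate 1 these were -0.95, -1, 0.28 and 4.21.

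The TALE homeodomain proteins Pbx, Meis and Pknox bind DNA together with Hox proteins, and Tgif1 is a further TALE protein. Of the 8 TALE genes tested, Tgif1 included, 2 were called higher in psoas than in EDL and 0 lower, beside 2.43% and 2.50% of all genes. Their median log2 fold change was 0.60. Meis1 had 121.6 to 350.8 normalized counts in psoas and 33.8 to 63.4 in EDL (log2 fold change 1.86, SE 0.311, edgeR adjusted p = 0.00239). Meis2 had 41.7 to 270.6 in psoas and 1.35 to 17.9 in EDL (log2 fold change 3.44, SE 0.736, adjusted p = 0.00778), and for both genes the highest library was psoas replicate 1. Soleus lay between for Meis1, at 81.4 to 93.1, and for Meis2 had 6.43 to 41.3, which overlapped EDL. In each of the comparisons with soleus, 0 of the 8 were called by edgeR and 0 by DESeq2. At an unadjusted p under 0.05 there were 3 in each, beside 15.1% of all genes against EDL and 12.7% against psoas.

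Of the non-coding and antisense genes of the clusters 3 were tested, and Hoxa11os was the 1 called, lower in psoas than in EDL as given above, beside 2.50% of all genes. Hotair, transcribed from the Hoxc cluster near Hoxc11, had 0.869 to 4.19 in psoas, 1.99 to 15.2 in EDL and 12.0 to 16.4 in soleus, and was not called. Polycomb proteins keep Hox genes silent, and edgeR called 0 of 27 tested in any of the 3 comparisons. In psoas against EDL 10 of these were at an unadjusted p under 0.05, beside 33.3% of all genes, and DESeq2 called 1. For soleus the numbers were 5 and 0 beside EDL, with 15.1% of all genes at such a p, and both were 0 beside psoas, with 12.7%. Rbbp7 and Pcgf3, the 2 with the highest mean normalized count over all 13 libraries, had log2 fold changes of psoas against EDL of -0.35 and 0.49. Of 13 Trithorax proteins and H3K27 demethylases, which act in the opposite direction, 1 was called higher in psoas than in EDL, beside 2.43% of all genes. It was the demethylase Kdm6b (log2 fold change 1.32, SE 0.286, edgeR adjusted p = 0.00831). In this comparison 9 of the 13 were at an unadjusted p under 0.05, beside 33.3% of all genes, and DESeq2 called 1.

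Retinoic acid and Gdf11 are inputs that set Hox expression along the embryonic body axis. Of the 12 such genes tested, 4 were called lower in psoas than in EDL and 0 higher, beside 2.50% and 2.43% of all genes. The 4 were Aldh1a1, which makes retinoic acid, the binding protein gene Crabp1, the receptor gene Rarb and Gdf11. DESeq2 called 7 of the 12, beside 812 genes higher and 774 lower among all 17069. Aldh1a3, also an enzyme that makes retinoic acid, and the receptor gene Rara, both named after their values were seen, were at log2 fold changes of 1.35 (edgeR adjusted p = 0.0108) and 1.45 (adjusted p = 0.0192) and were not called. Aldh1a1 had 484.9 to 950.8 normalized counts in psoas, 2081 to 5011 in EDL and 581.1 to 975.5 in soleus. It was also the 1 gene of the list called lower in soleus than in EDL (log2 fold change -1.95, edgeR adjusted p = 0.00817), beside 0.445% of all genes. Of 21 other limb and body-position transcription factors tested, Tbx3 and En1 were called higher and Tbx15 lower in psoas than in EDL. The shares of all genes were 2.43% and 2.50%. Tbx18 and En1 were called higher in soleus than in EDL and 0 lower, beside 0.533% and 0.445% of all genes. Between soleus and psoas, edgeR and DESeq2 called 0 genes of either list, with 4 and 5 at an unadjusted p under 0.05, beside 12.7% of all genes.

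Hoxa13 and Hoxc8 were the called members with the smallest adjusted p in each direction, and genes outside the clusters were ranked by the correlation of log2 CPM with them over the 13 libraries. Most like Hoxa13 were Atp9a (r = 0.958), Gm17281 (0.952), Vegfa (0.932), Asph (0.928) and Ybx1 (0.921). Most like Hoxc8 were Ino80e (0.938), Ptprz1 (0.933), Vav2 (0.93), Iffo1 (0.93) and Wnt10a (0.926). The 13 points fall into 3 muscles, so these values mostly describe a like order of the muscles.

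Markers of other cell types in the muscles differed between the same libraries. Of 6 tendon markers 4 were called lower in psoas than in EDL, Tnmd, Mkx, Fmod and Kera, beside 2.50% of all genes. The list summed to 13508 to 20131 normalized counts in EDL, 6892 to 15464 in psoas and 6651 to 9093 in soleus. Of 5 cartilage markers tested 2 were called lower in psoas than in EDL, Ucma and Comp, beside the same 2.50%. Their list had sums of 1449 to 3563, 298.1 to 900.4 and 1167 to 2862 in the same order. Sox9 of this list, named after its values were seen, had means of 59.2 in psoas and 19.4 in EDL (log2 fold change 1.59, edgeR adjusted p = 0.0193), was not called and was highest in psoas replicate 1. Of 7 mesothelium markers 6 were called higher in psoas than in EDL, beside 2.43% of all genes. The sums were 41.8 to 122.2 in EDL, 269.4 to 1216 in psoas and 48.6 to 168.5 in soleus, and Bnc1 was at 0 in all EDL libraries. Of 8 fibroblast markers edgeR and DESeq2 called 0 in each comparison, with 1 at an unadjusted p under 0.05. The share of all genes at such a p was 33.3% in psoas against EDL, 15.1% in soleus against EDL and 12.7% in soleus against psoas. Fibroblast markers summed to 52252 to 95860 in EDL, 54529 to 67359 in psoas and 55530 to 87563 in soleus. The part of these cells in the Hox differences was not tested.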

How the data were processed

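RNA of 13 mdm muscles was sequenced as stranded total RNA with paired 75 base reads. The authors trimmed low-quality libraries with Trimmomatic 0.32, aligned reads with TopHat 2.1.1 to GRCm38.p4 and counted them per gene with GenomicAlignments, and deposited raw counts for each library. Strand setting and overlap mode of the counting are not given in the sources used here. The authors also deposited a normalized signal, the count divided by the library's size factor. Symbols, exons and coordinates came from GENCODE mouse release M21 and promoter windows from RefSeq.

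Genes that reached 10 normalized counts in 3 or more libraries were tested with edgeR 4.0.16 in R 4.3.3 (TMM, glmQLFit and glmQLFTest, muscle as the only factor, all 13 libraries in 1 fit). Calls needed an adjusted p (Benjamini-Hochberg) below 0.01 together with a log2 fold change beyond 1 in either direction, the limits of the study. The study also fitted the sequencing run, which the labels do not name. Standard errors were derived from the log2 fold change and its F value. Log2 CPM used a prior count of 2. The study describes the libraries of each muscle as replicates, and those of soleus as biological replicates, but the labels do not name the mouse of each library. P-values measure the spread between these libraries. Total counts give a counting error of 10% at 100 counts, and most Hox genes had fewer.

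Deviations from the muscle means correlated between same-numbered EDL and psoas libraries by 0.407, 0.37, 0.316, 0.289 and 0.371, above the limit of 0.1, so their numbers were used as a block. EDL and psoas libraries of different number correlated by -0.441 to 0.237, some of them also above 0.1. Replicate 1 came from mice of 38 and 29 days, so these 2 libraries are not from 1 mouse. The correlations do not show which libraries share a mouse. Soleus replicates 1 to 3 correlated by 0.115, 0.421 and -0.162 with same-numbered EDL libraries, and EDL replicate 4 reached 0.442 with soleus replicate 3. These soleus libraries came from mice of 33, 36 and 38 days. Same-numbered EDL mice were 38, 38 and 42 days old and psoas mice 29, 38 and 42. The soleus numbers therefore do not pair, whatever the correlation. In comparisons with soleus the replicate block therefore groups libraries by number only.

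Alternatives were other size factors, other filters, DESeq2 1.42.0, limma 3.58.1 on log2(normalized count + 1), the label code or the replicate number as a block, the compared muscles alone and each library left out. Codes T1 and T3 each hold 1 library, EDL replicate 1 and psoas replicate 1. Under the code block neither library adds to the comparison of muscles. The code was tested on simulated data. Tables and figures were made with Python 3.11.15, pandas 2.3.3, scipy 1.17.1 and matplotlib 3.10.9. The members, gene lists and markers were chosen with earlier results of these data known. Every Hox gene with values was described, those called with all libraries, and of the other lists the called genes, at most 4 per comparison. Some of the marker lists are not reported here.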

Additional observations from a re-analysis of the deposited data

Results flagged for a closer look

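In 12 of 46 groups of 5 libraries, 1 library lay so far from the others that its gap to the next exceeded Dixon's limit. That limit flags about 1 in 20 groups of independent, normally distributed values. Many of these counts are low and the groups share libraries, so the rate need not hold here. Psoas replicate 1 was this library in 10 groups, always as the highest. Among these were Hoxa11, at 41.0 normalized counts against 0 to 1.07 in the other psoas libraries, Hoxd10, at 57.8 against 0 to 1.66, Hoxb6, at 34.0 against 5.21 to 6.94, and Hoxd11, at 38.7 against 0 to 3.47. Hoxa13 was at 1.40 there, from 3 counts, against 0 in the others. The other members were Hoxa6 at 15.8, Hoxa7 at 141.1, Hoxa9 at 160.2, Hoxc4 at 32.6 and Hoxd9 at 27.9. Hoxc10 was flagged in EDL replicate 2, at 40.2 against 16.3 to 21.6, and Hoxc11 in psoas replicate 3, at 0.916 against 6.63 to 7.48. Psoas replicate 1 came from the youngest mouse, of 29 days, and has a label code, T3, that no other library used here has, so age, code and library cannot be told apart.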

How the results depend on the processing

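In psoas against EDL, the calls of Hoxa13, Hoxc11 and Hoxc8 held under all 8 alternatives and in all 13 fits that left out 1 library. The number of Hox genes higher in psoas was 2 in the reported fit, 1 with the compared muscles alone, 1 with the label code block, 4 with DESeq2 (Hoxb4, Hoxc5, Hoxc6 and Hoxc8) and 1 to 2 when single libraries were left out. The number lower was 2, but 3 with limma (Hoxa11, Hoxa13 and Hoxc11) and 2 to 5 with single libraries left out, the 5 only without psoas replicate 1. It was also 5 with the label code block, under which psoas replicate 1 adds nothing to the comparison. Without EDL replicate 2, Hoxc10 was called higher (1.35, edgeR adjusted p = 0.00857). In soleus against EDL DESeq2 called 1 gene lower. In soleus against psoas the number higher was 1, and 0 with the compared muscles alone, the label code block or the replicate block, which is unpaired for soleus. It was 3 with DESeq2 and 0 to 1 with single libraries left out, and DESeq2 called 1 lower. Without psoas replicate 3 Hoxc11 was called higher in soleus than in psoas (adjusted p = 0.0089). The replicate block changed no other call of a Hox gene. Over all genes, psoas against EDL gave 415 higher and 426 lower, but 812 and 774 with DESeq2 and 576 and 530 with the label code block. In soleus against EDL these were 91 and 76, but 270 and 363 with DESeq2 and 31 and 55 with the block, and in soleus against psoas 12 and 1, but 95 and 76 and 4 and 2.

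Signs of log2 fold changes changed as follows, and apart from Hoxd10 without psoas replicate 1 or with the label code block none of these values was called. In psoas against EDL, Hoxd10 was -3.52 with the label code block, -1.63 with the replicate block and -1.62 with limma, and -3.46 to 0.81 with single libraries left out, while Hoxd11 ran from -3.08 to 0.32 in the latter. Hoxa6 was 0.02 with the replicate block and 0.02 with limma and ran from -0.51 to 0.35, Hoxa9 was -0.17 with the label code block and ran from -0.16 to 0.12, and Hoxc9 ran from -0.17 to 0.12. In soleus against EDL, the label code block gave -0.05 for Hoxc4, -0.08 for Hoxc10, -0.12 for Hoxc11 and -0.34 for Hoxd9, the replicate block -0.23 for Hoxd9 and -0.55 for Hoxd10, and limma -0.03 for Hoxc4 and -0.04 for Hoxd9. With single libraries left out, Hoxb4 ran from -0.05 to 1.04, Hoxc4 from -0.16 to 0.68, Hoxc8 from -0.54 to 0.61, Hoxd9 from -0.26 to 0.32 and Hoxd10 from -0.06 to 0.57. In soleus against psoas, Hoxd10 was 3.63 with the label code block, 0.68 with the replicate block and 1.86 with limma, and ran from -0.54 to 3.82, Hoxd11 was 2.25 with the label code block and 0.61 with limma and ran from -1.86 to 1.89, and Hoxa9 ran from -0.27 to 0.01. The cause was not tested. Ratios within label codes were added after seeing the data. Soleus has 3 libraries, and Hox counts were low, from 0 to 635 per gene and library.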
